A study of Mus musculus with 29 samples.

Results

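The genes described here are 9 Eph receptors and ephrins out of the 23366 genes counted in each library: the receptors Epha2, Ephb4, Epha7, Ephb2 and Ephb6 and the ephrins Efna1, Efna4, Efnb1 and Efnb2. They were taken from the count files by symbol. The set was chosen on measured values, since Epha2 was high and Ephb4 was low in Mysm1-/-Puma+/- cells against wild-type cells. That contrast is therefore given as a description with no test, as is every comparison that uses either of those groups. Tests compared only groups that the choice did not use. The fits behind them also took in the other groups, for filtering, scaling and the estimate of spread.

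The RNA came from mouse bone marrow (C57BL/6, 8 to 12 weeks of age, males and females pooled) sorted as lineage-negative, Kit-positive, Sca1-positive cells, the compartment that holds blood stem cells and multipotent progenitors. Each sort was divided by the surface protein CD150, which is carried by long-term stem cells, into CD150-negative and CD150-positive cells. Mysm1 encodes a chromatin-bound histone H2A deubiquitinase, and Puma (gene Bbc3) is a p53-induced activator of apoptosis. The 29 libraries form 8 groups. CD150-negative cells had 3 libraries from wild-type mice and 3 from Puma-/- mice, with 3 more from Mysm1-/-Puma+/- mice and 3 from the double mutant Mysm1-/-Puma-/-. CD150-positive cells had 4 libraries from wild type and 2 from Puma-/-, with 4 from Mysm1-/-Puma+/- and 7 from the double mutant. There is no Mysm1-/- group with both Puma alleles intact: per the series text, Mysm1-/-Puma+/- stood in for it. The labels do not say whether libraries of a group came from separate mice, so p-values measure only the spread between these libraries. In bulk RNA, fewer cells of a type and less RNA per cell cannot be told apart.

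Eph receptors are tyrosine kinases that bind ephrins on neighbouring cells, so signalling needs cell contact and can run into both cells. A-type ephrins are anchored in the membrane by a lipid, whereas B-type ephrins cross it and signal through their own tails. EphB4 and ephrin-B2 are best known as the venous and arterial partners in developing vessels, and EphB4 is also known in blood progenitors. EphA2 binds ephrin-A1 with high affinity and its gene is known as a target of p53.

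All 9 genes have an entry in RefSeq's promoter table (build GRCm38.p6), which holds 250 bases before to 50 bases after each start. The Epha2 and Ephb4 windows are shown because these 2 genes differed in opposite directions. Capitals mark every CG dinucleotide, the site of DNA methylation.
Epha2, chr4:141300971-141301270, plus strand: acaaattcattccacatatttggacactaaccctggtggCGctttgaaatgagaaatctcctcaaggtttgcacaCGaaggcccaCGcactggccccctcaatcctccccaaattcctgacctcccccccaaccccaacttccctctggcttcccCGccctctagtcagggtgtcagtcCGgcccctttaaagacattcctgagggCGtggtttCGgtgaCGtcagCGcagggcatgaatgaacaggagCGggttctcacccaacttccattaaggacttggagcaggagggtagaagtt
Ephb4, chr5:137349859-137350158, plus strand: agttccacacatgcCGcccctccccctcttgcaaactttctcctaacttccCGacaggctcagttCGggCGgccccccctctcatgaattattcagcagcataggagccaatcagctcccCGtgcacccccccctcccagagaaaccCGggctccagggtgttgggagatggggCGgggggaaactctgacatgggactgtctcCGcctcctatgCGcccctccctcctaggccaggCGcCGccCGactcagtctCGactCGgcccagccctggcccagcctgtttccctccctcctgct
The Epha2 window holds 10 CG dinucleotides and the Ephb4 window 14, against a median of 7 over all 32851 promoter windows. The p53 half-site, searched on both strands by its published consensus, had 1 match in the Efna4 window and none in the windows of the other 8 genes, against 8.36% of all windows with a match. In the mm9 genome, no member had 2 half-sites with a spacer of at most 13 bases within 5000 bases of its start, against 3.05% of 22380 protein-coding genes. Having no match says only that these letters are not in those windows.

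Libraries held 12304713 to 54339749 counts, with CD150-positive libraries shallower (12304713 to 35034318) than CD150-negative ones (28066870 to 54339749). Levels are CPM, the usual depth-scaled counts, scaled by TMM, edgeR's correction for composition, over all 29 libraries. Reads on 1464 genes of odorant, pheromone and trace amine receptors, which these cells are not known to use, served as a background and took 608 to 8902 CPM. Whole-gene counts of Mysm1 were at 78.7 to 127 CPM in CD150-negative and 99.0 to 118 CPM in CD150-positive Mysm1-/-Puma+/- libraries, which overlapped wild type (100.2 to 109.9 and 109 to 126 CPM). They were at 67.8 to 88.3 CPM in the Mysm1-/-Puma-/- libraries and 85.4 to 131 CPM in Puma-/-. Bbc3 was at 15.6 to 30.0 CPM in the Mysm1-/-Puma-/- libraries and at 2.03 to 6.01 CPM in the Puma-/- libraries, against 2.88 to 7.94 CPM in wild type. The sources used here do not give which part of either gene is deleted, so these counts check nothing and genotypes are those of the labels. All 7 genes of the gate list had reads in every group, with Slamf1, the gene of CD150, at means of 15.8 to 23.8 CPM in the CD150-positive groups and 0.584 to 1.82 CPM in the others. Among the CD150-positive libraries, 3 double-mutant libraries coded P and 1 wild-type library coded W1 stood apart in Fos (11.3 to 216 CPM, at most 4.68 CPM in the rest), and results that rest on them are given without them as well.

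Epha2 was the member with the largest difference. In CD150-negative cells its levels were 2.54, 3.42 and 2.67 CPM in wild type and 3.28, 2.06 and 1.56 CPM in Puma-/-. They were 39.7, 39.2 and 45.0 CPM in Mysm1-/-Puma+/- and 36.7, 38.5 and 30.7 CPM in Mysm1-/-Puma-/-. All 6 libraries labelled Mysm1-/- lay above all 6 with Mysm1, and the wild-type and Puma-/- ranges overlapped. The share of all genes that split 6 from 6 libraries was not counted. Between Mysm1-/-Puma-/- and Puma-/- alone, 16.6% of genes did not overlap, and between Mysm1-/-Puma+/- and wild type 16.4%. Mysm1-/-Puma-/- against Puma-/- cells, groups outside the described contrast, gave a log2 fold change of 3.89 ± 0.25 (SE, 3 against 3 libraries). This was a 14.9-fold higher level, with an adjusted p = 8.77e-08 by edgeR's quasi-likelihood test with Benjamini-Hochberg adjustment. In that comparison 0.411% of 21168 genes were called higher and 0.935% lower at an adjusted p under 0.05, and Epha2 was the 1 member called of 9. The median log2 fold change of the members was -0.16, beside 0.03 over all genes tested. The call held in 12 of 12 alternatives, between 3.65 and 4.26. The described contrast of Mysm1-/-Puma+/- minus wild type was 3.81 ± 0.25 in the same population.

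In CD150-positive cells, Epha2 was also higher in the libraries labelled Mysm1-/-, with a wider spread. Wild-type libraries had 0.767, 1.32 and 0.931 CPM and, in W1, 6.33 CPM, and the 2 Puma-/- libraries had 1.26 and 2.55 CPM. Mysm1-/-Puma+/- libraries had 21.2, 17.5, 11.8 and 7.03 CPM, and the 7 Mysm1-/-Puma-/- libraries ran from 9.71 through a median of 17.4 to 22.2 CPM. Again no library with Mysm1 reached the lowest library without it, with W1 closest at 6.33 against 7.03 CPM. The share of all genes with this split was not counted. Between Mysm1-/-Puma-/- and Puma-/- alone, 11.6% of genes did not overlap, and between Mysm1-/-Puma+/- and wild type 6.1%. Mysm1-/-Puma-/- minus Puma-/- was 3.16 ± 0.70 (7 against 2 libraries), but this did not pass, with an adjusted p = 0.0940 by edgeR's quasi-likelihood test with Benjamini-Hochberg adjustment. None of the 9 members was called here, while over 20944 genes 0.0907% were called higher and 0.0239% lower. The members' median was -0.16, beside -0.09 over all genes tested. Epha2 was called in 3 of 15 alternatives. DESeq2 gave 3.04 with an adjusted p of 0.000161, and edgeR's fit over all 29 libraries gave 3.09 with an adjusted p of 0.0124. Leaving out libraries P and W, edgeR gave 2.85 ± 0.49 with an adjusted p of 0.0234. Mysm1-/-Puma+/- minus wild type, described only, was 2.56 ± 0.52 and, with libraries P and W left out, 3.81 ± 0.44, an alternative added after the values were seen. The P libraries (20.1 to 22.2 CPM) lay above the 4 other double-mutant libraries (9.71 to 17.4 CPM).

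**Figure D1:**
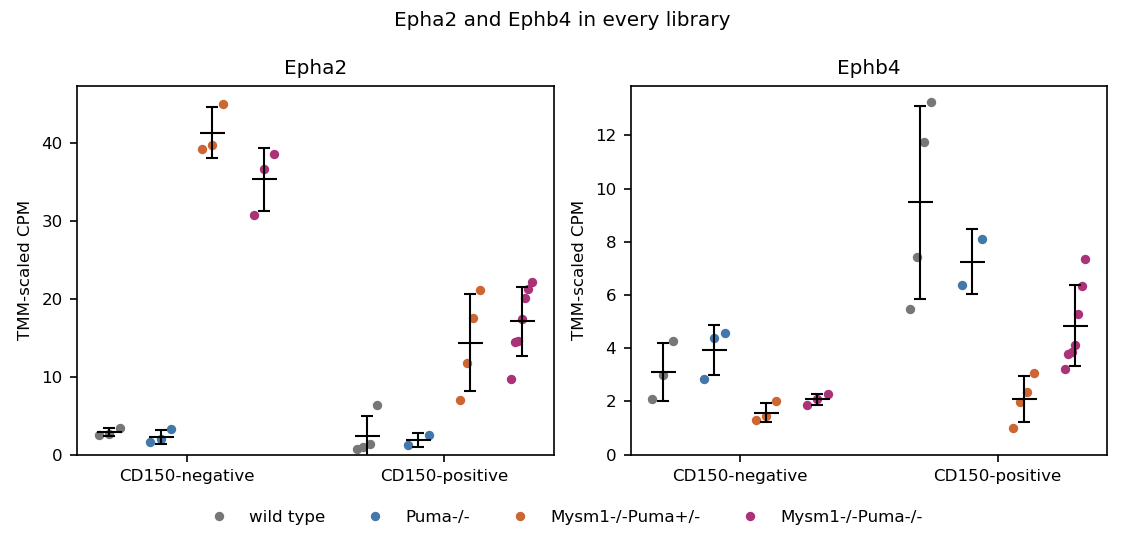
Epha2 (left) and Ephb4 (right) in every library, as TMM-scaled CPM on linear axes from 0, with 1 point per library, the mean as a horizontal bar and the SD as whiskers, which stop at 0 where they would pass it. Epha2 libraries labelled Mysm1-/- sit between 30.7 and 45.0 CPM in CD150-negative and between 7.03 and 22.2 CPM in CD150-positive cells. In each population they lie above every library with Mysm1, a split whose share of all genes was not counted.

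Whether the Mysm1 difference in Epha2 was of unequal size in the 2 populations was tested as the difference between both differences on the Puma-null background. Epha2 gave -0.86 ± 0.71 with an adjusted p = 0.722 by edgeR's quasi-likelihood test with Benjamini-Hochberg adjustment, and no other member passed. Across 21830 genes 0% were called by edgeR in either direction (1661 at an unadjusted p under 0.05) and DESeq2 called 6 genes. A p above the threshold does not show that the differences were equal. By group mean, Epha2 ran from 41.3 ± 3.23 CPM (SD, n = 3) in CD150-negative Mysm1-/-Puma+/- cells and 35.3 ± 4.07 (n = 3) in CD150-negative Mysm1-/-Puma-/- cells through 17.1 ± 4.48 (n = 7) and 14.4 ± 6.23 (n = 4) in CD150-positive Mysm1-/-Puma-/- and Mysm1-/-Puma+/- cells. The 2 CD150-negative groups did not overlap, by 39.2 against 38.5 CPM at the closest, and the 2 CD150-positive ones did. Double mutant minus Mysm1-/-Puma+/-, described only, was -0.24 ± 0.22 in CD150-negative and 0.27 ± 0.43 in CD150-positive cells. The share of all genes without overlap was not counted for these groups. The 4 groups with Mysm1 followed at means of 1.91 to 2.88 CPM and overlapped one another. That order rests in part on W1: without it, a choice made after the values were seen, CD150-positive wild type was at 1.00 ± 0.28 CPM (SD, n = 3; 0.767 to 1.32) and lay below both CD150-negative groups with Mysm1. The described population difference in wild type was -0.24 ± 0.47, and -1.55 ± 0.37 leaving out P and W. Per kilobase of exon, Epha2 passed the 95th percentile of the background genes of the same library in 6 of 12 CD150-negative libraries and 12 of 17 CD150-positive ones. Those were all 17 libraries labelled Mysm1-/- and W1. The level in the other libraries with Mysm1 was therefore not separable from background, and the folds above depend on it.

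Ephb4, the receptor of ephrin-B2, went the other way. CD150-positive wild-type libraries had 5.48, 7.43, 11.7 and, in W1, 13.2 CPM, and Puma-/- libraries had 8.11 and 6.38 CPM. Mysm1-/-Puma+/- libraries had 1.98, 0.993, 3.07 and 2.34 CPM, and Mysm1-/-Puma-/- libraries ran from 3.21 through a median of 4.13 to 7.37 CPM. Every Mysm1-/-Puma+/- library lay below every other CD150-positive library, by 3.07 against 3.21 CPM at the closest, while the double mutants overlapped both groups with Mysm1. Against wild type alone, 6.1% of genes did not overlap. The share of genes against all other CD150-positive libraries was not counted. No Mysm1-/-Puma+/- or Puma-/- library passed the background limit used above for Epha2, so differences from these groups depend on a level not separable from background. The described contrast of Mysm1-/-Puma+/- minus wild type was -2.21 ± 0.39, and -2.02 ± 0.40 with libraries P and W left out. The double mutant minus Mysm1-/-Puma+/- was 1.23 ± 0.35, again with no test because the second group chose the gene. Mysm1-/-Puma-/- minus Puma-/- was -0.60 ± 0.41 (7 against 2 libraries) and not called, with an adjusted p = 0.598 by edgeR's quasi-likelihood test with Benjamini-Hochberg adjustment.

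Ephb4 in CD150-negative cells was too low to judge. Its levels were 2.07, 4.27 and 2.98 CPM in wild type and 4.38, 2.85 and 4.57 CPM in Puma-/-. They were 2.00, 1.45 and 1.29 CPM in Mysm1-/-Puma+/- and 2.28, 2.08 and 1.86 CPM in Mysm1-/-Puma-/-. The double mutants lay below all Puma-/- libraries and the Mysm1-/-Puma+/- libraries below all wild-type ones. Groups that do not overlap are common here, at 16.6% of genes in the first comparison and 16.4% in the second. The first gave -0.95 ± 0.41 with an adjusted p = 0.390 by edgeR's quasi-likelihood test with Benjamini-Hochberg adjustment, and the second, described only, gave -1.01 ± 0.41. No CD150-negative library passed the background limit for Ephb4, and 4 of 17 CD150-positive libraries did. Ephb4 (chr5:137791337-137819897, plus strand, mm9) overlaps exons of Zan on the opposite strand. The kit keeps strand, but the strand setting of the counting is not given in the sources used here, so reads of the 2 genes may not be separated.

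The endothelial list, which covers a cell type known for Ephb4 and Efnb2, had reads on 6 of 6 genes in every group. In CD150-positive cells its summed level was 128 to 229 CPM in wild type, 149 to 182 in Puma-/-, 207 to 285 in Mysm1-/-Puma+/- and 166 to 249 in Mysm1-/-Puma-/-. In CD150-negative cells the sum was 129 to 149, 138 to 149, 139 to 199 and 149 to 179 CPM in the same order. The list genes did not move together in CD150-positive cells. Pecam1, Kdr, Tie1 and Tek had higher means in the groups labelled Mysm1-/- than in those with Mysm1. Cdh5 and Emcn, like Ephb4, had lower means there. Cdh5 means were at most 2.11 CPM, against at least 3.01 CPM with Mysm1. Emcn means were at most 6.89 CPM, against at least 7.62 CPM with Mysm1. Several of these genes are also known in stem cells, and the part of endothelial RNA in the Ephb4 and Epha2 levels was not tested. T cell genes (5 of 6 list genes in the files, none at 0) summed to 29.1 to 47.2 CPM in CD150-negative libraries labelled Mysm1-/- and 48.2 to 72.3 CPM in those with Mysm1. Lck had the largest means, at 17.9 and 22.7 CPM in the groups labelled Mysm1-/- and 36.9 and 36.5 CPM in those with Mysm1. Cd28 went the other way (3.15 and 2.58 against 2.33 and 2.15 CPM), and the group means of Cd3d, Cd3e and Cd3g overlapped. The part of T cell genes in the differences above was not tested.

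Epha7, a receptor for A-type ephrins, had its lowest CD150-negative levels in the Mysm1-/-Puma+/- group, at 12.0, 10.6 and 9.52 CPM. Only 1 of these 3 libraries passed the background limit, against all 3 in each other CD150-negative group, so differences from this group depend on a level near background. Of the CD150-positive libraries, 6 of 17 passed it. The other CD150-negative libraries had 24.1, 26.6 and 22.7 CPM of Epha7 in wild type, 26.3, 22.4 and 26.1 CPM in Puma-/- and 21.8, 23.2 and 23.5 CPM in Mysm1-/-Puma-/-. The 3 libraries of the first group were thus below all 9 others, and the other 3 groups lay close together. Against wild type alone, 16.4% of genes did not overlap in CD150-negative cells. The share of genes for 3 against 9 libraries was not counted. Mysm1-/-Puma+/- minus wild type, described only, was -1.22 ± 0.16, and the double mutant minus Mysm1-/-Puma+/- was 1.08 ± 0.16. On the Puma-null background the difference was -0.16 ± 0.16 with an adjusted p = 0.839 by edgeR's quasi-likelihood test with Benjamini-Hochberg adjustment. In CD150-positive cells Epha7 was at 8.96 to 13.9 CPM in wild type, 10.3 and 11.6 CPM in Puma-/-, 3.72 to 7.99 CPM in Mysm1-/-Puma+/- and 4.16 to 11.8 CPM in Mysm1-/-Puma-/-. There the Mysm1-/-Puma+/- libraries lay below the wild-type ones, a comparison in which 6.1% of genes did not overlap. The double mutants overlapped all 3 other groups, with -0.69 ± 0.35 against Puma-/- and an adjusted p = 0.527 by the same edgeR test.

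Ephb2, a receptor for B-type ephrins, was also lowest in that group among CD150-negative cells. It was at 40.2, 35.4 and 48.6 CPM in wild type, 42.9, 64.6 and 44.6 CPM in Puma-/-, 26.7, 33.3 and 22.4 CPM in Mysm1-/-Puma+/- and 56.0, 46.1 and 36.7 CPM in Mysm1-/-Puma-/-. The Mysm1-/-Puma+/- libraries were again below all 9 others, where 16.4% of genes did not overlap against wild type alone. Ephb2 also followed the background reads: across libraries the correlation of log2 CPM with log2 background was 0.75 over the 12 CD150-negative and 0.94 over the 17 CD150-positive libraries, and 0.97 within the 7 CD150-positive double mutants. These are descriptions over libraries that share genotypes and depth. Background in CD150-negative cells was 1000 to 3007 CPM in Mysm1-/-Puma+/- and 1946 to 5671 CPM in the other groups. With background as a covariate, an alternative added after the values were seen, the described difference from wild type was -0.44 ± 0.15 against -0.62 ± 0.20 without it in CD150-negative cells, and -0.21 ± 0.20 against -0.66 ± 0.39 in CD150-positive cells. On the Puma-null background Ephb2 gave -0.16 ± 0.20 and -0.63 ± 0.42 in the CD150-negative and CD150-positive populations, and neither was called. The covariate turned the CD150-positive value to 0.16 ± 0.25, also not called.

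**Figure D2:**
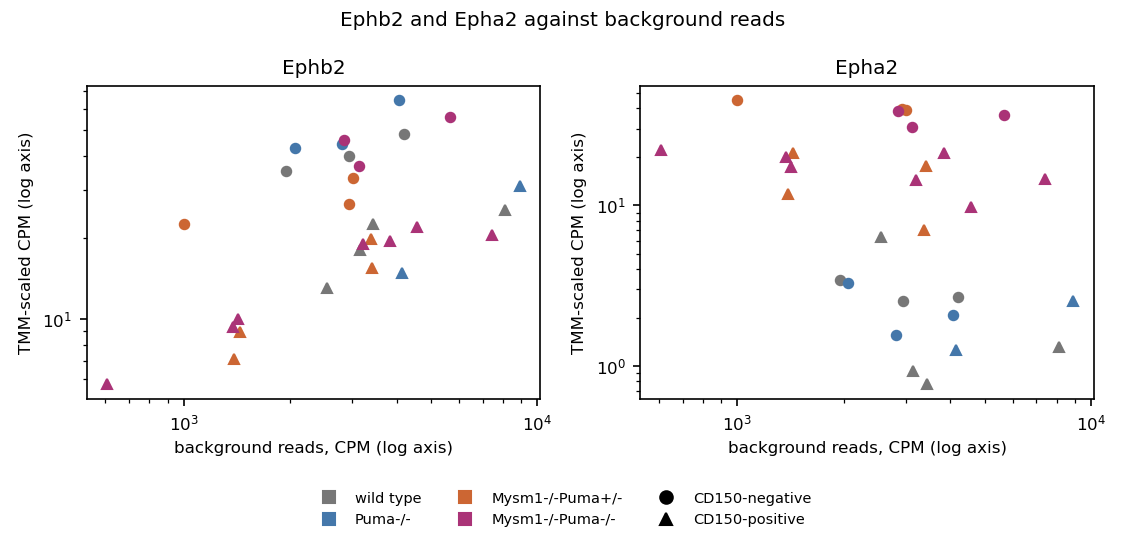
Ephb2 (left) and Epha2 (right) against the CPM of background reads in the same library, both on log axes, with 1 point per library, colours for genotype, circles for CD150-negative and triangles for CD150-positive. Ephb2 rises along the background axis within each population (correlations 0.75 and 0.94), while for Epha2 (correlations -0.11 and -0.50) the libraries labelled Mysm1-/- lie above the others within each population. The share of all genes with that split was not counted.

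Ephb6 is a receptor without kinase activity. CD150-negative libraries ran from 9.90 to 15.4 CPM and CD150-positive ones from 6.30 to 17.6 CPM. On the Puma-null background it gave -0.04 ± 0.19 and 0.55 ± 0.30 in the 2 populations, with adjusted p of 0.986 and 0.536 by edgeR's quasi-likelihood test with Benjamini-Hochberg adjustment. In CD150-positive cells the Mysm1-/-Puma+/- libraries had 6.30, 7.35, 8.81 and 11.4 CPM and the Puma-/- libraries 9.42 and 7.43 CPM, against 10.2 to 17.6 CPM in wild type and 8.94 to 15.4 CPM in the double mutants. All but 1 of the Mysm1-/-Puma+/- libraries and both Puma-/- libraries lay below the wild-type range. The share of all genes without overlap between Puma-/- and wild type was not counted. The described differences were -0.76 ± 0.25 for Mysm1-/-Puma+/- minus wild type, -0.72 ± 0.32 for Puma-/- minus wild type and 0.60 ± 0.23 for the double mutant minus Mysm1-/-Puma+/-.

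Among the ephrins, Efnb1, a ligand of EphB receptors, had the highest mean CPM per kilobase in 7 of 8 groups, with Efna4 above it in CD150-negative Puma-/- cells (2.14 against 1.85 CPM per kb). It had 5.31 to 7.48 CPM in CD150-negative and 7.43 to 14.1 CPM in CD150-positive libraries. Its Mysm1 differences on the Puma-null background were 0.07 ± 0.23 and 0.41 ± 0.26, neither called. Efna4, a ligand of EphA receptors, had 1.72 to 4.41 CPM and 0.548 to 3.10 CPM in the 2 populations, and differed by -0.22 ± 0.38 and 0.14 ± 0.65, neither called. A long noncoding gene overlaps Efna4 exons on the opposite strand, so its reads may be mixed.

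Efnb2, the partner of Ephb4, was at 0.110 to 2.87 CPM in CD150-negative libraries and too low to judge there. CD150-positive libraries had 6.47, 2.71, 2.39 and, in W1, 3.74 CPM in wild type, 3.53 and 5.03 CPM in Puma-/-, 0.939, 0.894, 1.42 and 2.20 CPM in Mysm1-/-Puma+/- and 0.718 to 2.88 CPM (median 1.83) in Mysm1-/-Puma-/-. The double mutants lay below both Puma-/- libraries and the Mysm1-/-Puma+/- libraries below all wild-type ones. In these 2 comparisons 11.6% and 6.1% of genes did not overlap between groups. Double mutant minus Puma-/- was -1.30 ± 0.56 and not called, with an adjusted p = 0.490 by edgeR's quasi-likelihood test with Benjamini-Hochberg adjustment. Only 3 of 17 CD150-positive libraries passed the background limit for Efnb2, whose log2 CPM followed log2 background at a correlation of 0.56. Efna1, the ligand of EphA2, had 0 to 1.86 CPM in CD150-negative libraries, where it was too low to judge, and 0.490 to 3.83 CPM in CD150-positive ones, where 6 of 17 passed the limit.

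**Figure D3:**
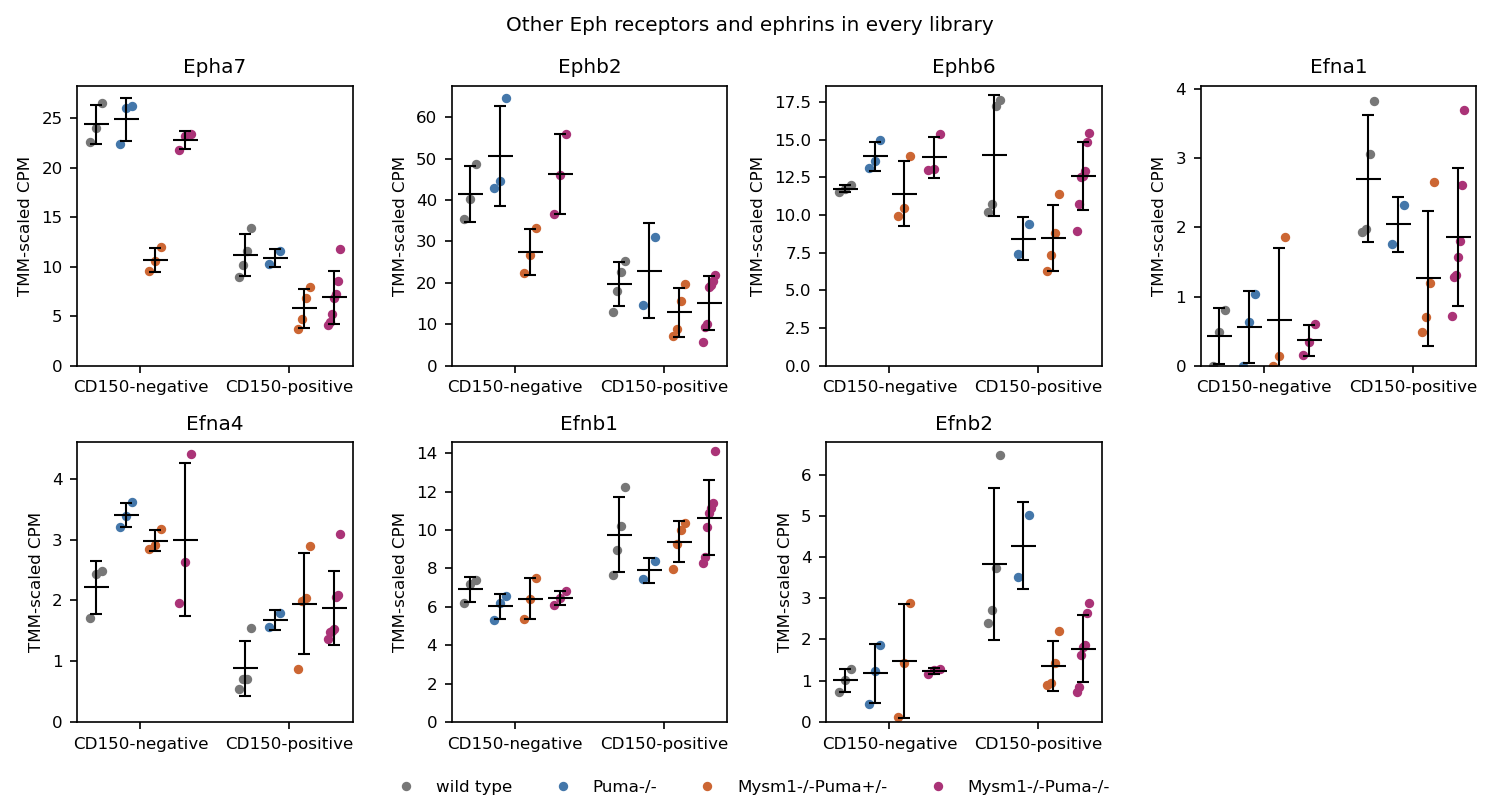
The other 7 genes in every library, as TMM-scaled CPM on linear axes from 0, each panel with its own scale, with 1 point per library, the mean as a bar and the SD as whiskers that stop at 0. Epha7 at 9.52 to 12.0 CPM and Ephb2 at 22.4 to 33.3 CPM in CD150-negative Mysm1-/-Puma+/- libraries lie below all other CD150-negative libraries. Against wild type alone, 16.4% of genes did not overlap.

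Under the rule for genes too low to judge (dropped by edgeR's filter, a mean under 1 CPM in all 4 genotypes, or under the background limit in most libraries of each genotype), 3 of 9 members failed in CD150-negative cells, namely Ephb4, Efna1 and Efnb2, and 0 of 9 in CD150-positive cells. All 9 passed edgeR's filter in both populations. The CD150-positive verdict is a weak one for several genes. Ephb4, Efna1 and Efnb2 passed there only through wild type, with 2 of 4 libraries over the background limit, W1 among them each time. With W1 left out, most wild-type libraries lie under the limit, and the rule would fail these genes. Epha7 passed only through Mysm1-/-Puma+/-, also with 2 of 4 libraries over it. Both groups were used in choosing the set. Of 17 libraries, Efnb2 passed the background limit in 3, Ephb4 in 4, Epha7 and Efna1 in 6 each and Efna4 in 7, against 15 for Ephb6 and 17 each for Ephb2 and Efnb1. Of the other 13 family genes, 12 were too low in CD150-negative cells, all but Epha1, and 13 in CD150-positive cells.

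Per kilobase of exon, Ephb2 led in CD150-negative wild type (8.66 ± 1.40 CPM per kb, SD, n = 3), followed by Epha7 (2.44 ± 0.20) and Efnb1 (2.12 ± 0.20), which lay within their spread of each other. Epha2 ranked 6 of 9 there at 0.732 ± 0.12 CPM per kb. In CD150-negative Mysm1-/-Puma+/- cells Epha2 came first at 10.5 ± 0.82 CPM per kb, ahead of Ephb2 at 5.75 ± 1.15. In Mysm1-/-Puma-/- cells Ephb2 (9.68 ± 2.02) and Epha2 (8.98 ± 1.03) did not differ beyond their spread. In CD150-positive wild type Ephb2 (4.13 ± 1.12) and Efnb1 (2.99 ± 0.60) led and Epha2 ranked 8 of 9 at 0.594 ± 0.68 CPM per kb, and 9 of 9 at 0.256 ± 0.072 CPM per kb without W1.

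**Figure D4:**
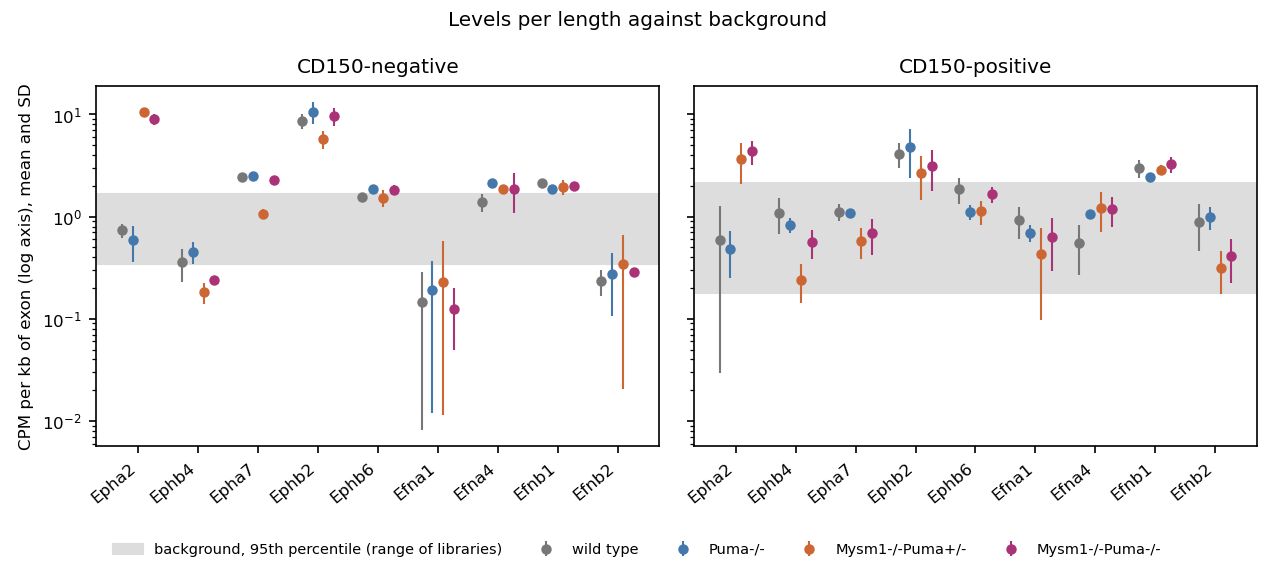
CPM per kilobase of exon on a log axis for each gene, with group means as points, SD as bars (cut at the lower end where they would reach 0), and a grey band for the range over libraries of the background's 95th percentile. Ephb2 means lie above the band in both populations, Ephb4, Efna1 and Efnb2 lie in or below it in CD150-negative cells, and Epha2 leaves it only in the groups labelled Mysm1-/-.

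CD150-positive and CD150-negative cells differed in several members. In Mysm1-/-Puma-/- cells (7 against 3 libraries), 4 of 9 members were called, 2 higher and 2 lower in CD150-positive cells, where 5.16% and 7.14% of 21830 genes were called higher and lower. Epha7 fell by 1.74 ± 0.23 on the log2 scale and Ephb2 by 1.63 ± 0.33, with adjusted p of 4.12e-06 and 0.000754 by edgeR's quasi-likelihood test with Benjamini-Hochberg adjustment, and both calls held in 17 of 17 alternatives. Epha7 was at 4.16 to 11.8 CPM against 21.8 to 23.5 CPM and Ephb2 at 5.72 to 21.9 CPM against 36.7 to 56.0 CPM. With background as a covariate Ephb2 still gave -1.38 ± 0.16. Ephb4 rose by 1.21 ± 0.36 and Efnb1 by 0.71 ± 0.19, with adjusted p of 0.0253 and 0.0110 by the same edgeR test. The Ephb4 call rests on a level under the background limit in CD150-negative cells and held in 11 of 17 alternatives. It was lost with P and W left out (adjusted p 0.0601), without P3 alone (0.0503) and without any 1 of the CD150-negative libraries B1, B3 and B5 (0.0714, 0.0790 and 0.0780). The Efnb1 call held in 15 of 17 and was lost without the CD150-negative library B1 (adjusted p 0.0744). A block on library codes ended both calls, with adjusted p of 0.175 for Ephb4 and 0.110 for Efnb1 in edgeR. Epha2 was lower in CD150-positive cells by -1.06 ± 0.38 and not called, with an adjusted p of 0.0661 in edgeR, and it was called at -1.33 ± 0.29 without the P libraries and W1 (adjusted p 0.00196), at -1.22 ± 0.35 with background as a covariate (0.0138) and at -1.21 ± 0.23 with the block on library codes (0.00348). It was called in 5 of 17 alternatives.

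In Puma-/- cells (2 against 3 libraries), 0 of 9 members were called by edgeR and DESeq2 called 1, Epha7. Here 2.29% of genes were called higher and 2.66% lower. Epha7 gave -1.10 ± 0.34 with an adjusted p = 0.0588 by edgeR's quasi-likelihood test with Benjamini-Hochberg adjustment, Ephb2 -1.04 ± 0.47 and Ephb4 0.96 ± 0.44. The described differences in wild type had the same directions, at -1.08 ± 0.27 for Epha7, -1.02 ± 0.38 for Ephb2 and 1.64 ± 0.39 for Ephb4. Megakaryocyte genes (6 of 6 with reads) summed to 410 to 980 CPM in CD150-positive and 53.2 to 73.7 CPM in CD150-negative double mutants, and granulocyte and monocyte genes to 348 to 960 against 680 to 1897 CPM. Their part in these differences was not tested.

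**Figure D5:**
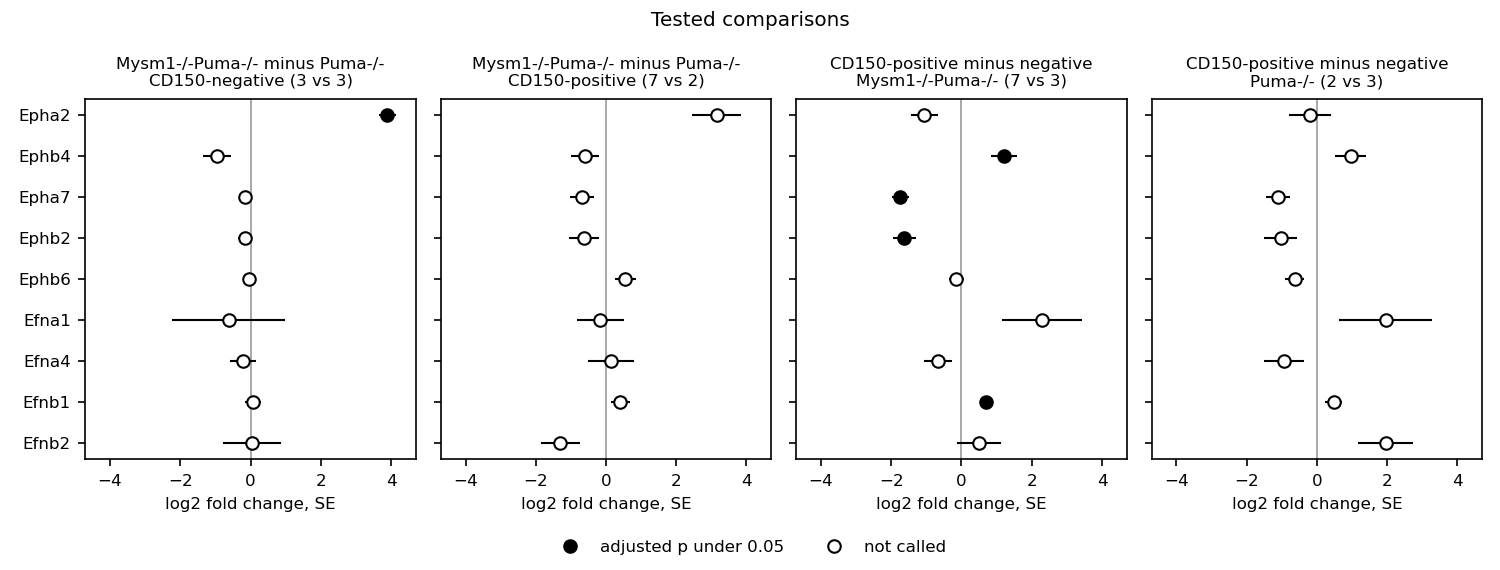
Log2 fold changes with SE as bars for the 9 genes in the 4 tested comparisons, with filled points for an adjusted p under 0.05 in edgeR. Epha2 at 3.89 is the only filled point for Mysm1 loss, and 4 points are filled for CD150-positive minus CD150-negative cells of Mysm1-/-Puma-/- mice.

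Of the other 13 family genes, 12 were tested. On the Puma-null background 0 were called in either population by edgeR, and 0 by DESeq2 in either population. In Mysm1-/-Puma-/- cells, 3 (25% of those tested, beside 7.14% of all genes) were called lower in CD150-positive than in CD150-negative cells: Epha1, a receptor of A-type ephrins, at -2.08 ± 0.42, the ephrin Efna5 at -2.60 ± 0.52 and the receptor Ephb3 at -2.02 ± 0.52. Only Epha1 could be judged in CD150-negative cells.

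Of 40 genes that act in Eph signalling (exchange factors, Src-family kinases, adaptors, ephrin-tail partners), 0 were called for Mysm1 loss on the Puma-null background in either population by edgeR, and 0 by DESeq2. Their median log2 fold changes were -0.09 and 0.17, beside 0.03 and -0.09 over all genes tested. Between populations of Mysm1-/-Puma-/- cells, 6 (15% of the list) were higher and 3 (7.5%) lower in CD150-positive cells, beside 5.16% and 7.14% of all genes. The 4 with the smallest p were Grb10, an adaptor that binds receptor kinases (2.87 ± 0.19, 59.7 ± 8.74 against 8.07 ± 1.25 CPM), Vav3, an exchange factor (-0.86 ± 0.15), Sipa1l1, a Rap GTPase activator (0.79 ± 0.15), and Arhgef15, an exchange factor known from EphB2 signalling (-1.25 ± 0.30). In Puma-/- cells 2 (5%) were higher and 1 (2.5%) lower, beside 2.29% and 2.66% of all genes. These were Grb10 (2.55 ± 0.22), Kalrn, an exchange factor (1.00 ± 0.30) and Vav3 (-1.35 ± 0.22).

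Over all 29 libraries, the 5 of 10843 genes whose log2 CPM followed that of Epha2 most closely were Cdkn1a, the p21 cell cycle inhibitor (Pearson r 0.94), Sulf2, a heparan sulfate sulfatase (0.92), Phlda3, an Akt inhibitor (0.92), Bbc3 itself (0.92) and Psrc1, a spindle protein (0.92). The median r of all genes with Epha2 was 0.12. Cdkn1a averaged 25.1 CPM in libraries labelled Mysm1-/- and 1.85 CPM in those with Mysm1. For Ephb4 the closest were Trib2, a pseudokinase (0.87), Jam3, a junction protein (0.84), Ptpn14, a phosphatase (0.82), Zcwpw1, a histone reader (0.81) and Sbf2, a phosphatase-like exchange factor (0.80). Trib2 averaged 8.71 and 24.4 CPM in the same order. These correlations are descriptions, since the libraries share genotype and population.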

How the data were processed

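Total RNA of sorted bone marrow cells was rRNA-depleted and sequenced as stranded libraries in paired-end 50 base reads. The deposited values are raw read counts per gene, made by the authors with featureCounts on mm9, per the submitters' processing notes, which also name FastQC, Trimmomatic 0.33, TopHat2 2.0.9, Bowtie 1.0.0 and edgeR in R 3.4.2. The strand setting of the counting is not given in the sources used here.

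Groups followed the labels. Counts were fitted across all genes with edgeR 4.0.16 in R 4.3.3 (TMM, filterByExpr, quasi-likelihood test, Benjamini-Hochberg adjustment over all genes tested, calls at an adjusted p under 0.05). Fits of a population used its 4 genotypes, and comparisons between populations used all 29 libraries. SE was taken from the log2 fold change and the test's F statistic, as its size over the root of F. Depth was 12304713 to 54339749 counts. Within a group, no pair of libraries agreed within sampling noise (lowest chi-square per degree of freedom 20.7). Scripts were tested on simulated data with 200 changed genes. Same-numbered libraries were not all correlated, so no replicate block was used in the main fits.

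Named genes are all 9 members, other family genes called in a test, up to 4 called signalling genes per comparison and the 5 genes most like Epha2 and Ephb4 by correlation of log2 CPM (prior count 2, mean of at least 4 CPM). The members and all lists were chosen with earlier results of these data known. The p53 search was added after the genes most like Epha2 were seen; it was also run with adjoining half-sites only, which matched no member. Alternatives were DESeq2 1.42.0, RLE size factors, no filter, other libraries in the fit, background as a covariate, other thresholds and leaving out libraries.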

Additional observations from a re-analysis of the deposited data

Results flagged for a closer look

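Of 27 groups of 4 to 10 libraries examined over the members, 3 held a library far from the others by Dixon's criterion, which chance meets in about 1 in 20 groups. Epha2 in CD150-positive wild type was at 6.33 CPM in W1, with the next library at 1.32 CPM. Efna4 in CD150-positive wild type was at 1.55 CPM in D2, with the next at 0.713 CPM, on counts of 10 to 20 per library. Efna4 in CD150-positive Mysm1-/-Puma-/- was at 3.10 CPM in B3, with the next at 2.09 CPM.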

How the results depend on the processing

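The Epha2 difference on the Puma-null background of CD150-negative cells and the lower Epha7 and Ephb2 of CD150-positive double mutants kept their calls in every alternative run. Ephb4, Efna1 and Efnb2 lay under the background limit in most libraries, and only 2 CD150-positive Puma-/- libraries enter the comparison there. With a threshold of 2 CPM in place of 1, 1 of 9 members was too low in CD150-positive cells.

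For Mysm1 loss in CD150-negative cells, 285 genes were called. DESeq2 called 638, the fit over all libraries 151, the background covariate 507 and the replicate block by sample number 81, where Epha2 was 3.99. Leaving out 1 library gave 148 to 336, with the lowest count without Puma-/- library C2 and 163, 171 and 184 without B1, B3 and C3. For Mysm1 loss in CD150-positive cells, 24 genes were called. DESeq2 called 107, the joint fit 71 and the fit leaving out P and W 13, each with 1 member called (Epha2), and leaving out 1 library gave 5 to 30, with 7 without C1-4 and 5 without C2-5. For the difference between populations, 0 genes were called by edgeR and 6 by DESeq2.

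Between populations of double mutants, 2685 genes were called, 1377 without CD150-negative B1 and 1594 without B3, over a range of 1377 to 3088. Members called ranged from 2 to 4 when 1 library was left out, with 2 without B1, and were 5 (Epha2 added) with the background covariate, by DESeq2 and with only the compared libraries. Between populations of Puma-/- cells, 1079 genes were called, 1626 by DESeq2 and 402 to 869 without 1 library (533 without C1-4, 402 without C2-5, 707 without C5). Members called were 1 (Epha7) by DESeq2, with no filter, with only the compared libraries and leaving out P and W, and 2 with the background covariate.

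Uncalled members near 0 changed sign. For Mysm1 loss in CD150-negative cells, Ephb6 became 0.0016 in the joint fit, 0.043 with the covariate, 0.016 with the replicate block and 0.031 without C2 (range without 1 library -0.12 to 0.031). Efnb2 became -0.32 with the covariate, -0.0092 without B1 and -0.38 without C5 (range to 0.49). Efna4 became 0.0072 without B5 (range from -0.59), Efnb1 -0.00025 without C2 (range to 0.11), Ephb2 0.016 without C3 (range from -0.34) and Efna1 0.15 without C5 (range from -1.20). In CD150-positive cells, Ephb2 became 0.16 with the covariate and 0.037 without C2-5 (range from -1.09), Efna1 0.078 leaving out P and W and 0.087 without C2-5 (range from -0.42), and Efna4 -0.033 without B3 (range to 0.28). For the difference between populations, Ephb2 became 0.38 with the covariate and 0.14 without C2-5 (range from -1.09), and Efna1 -0.47 without C5 (range to 1.05). Between populations, Ephb6 became 0.0044 in double mutants without B3 (range from -0.15), and Epha2 in Puma-/- cells became 0.047 with the covariate, 0.31 without C1-4 and 0.14 without C2 (range from -0.86).

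Library codes shared by both populations were correlated in 4 of 7 pairs above 0.1 (-0.18 to 0.64), and sample numbers within a population in 4 of 11 and 6 of 13 pairs. With a replicate block by library code, 3 of 9 members were called between populations of double mutants, Epha2 among them. The block could not be fitted for the 3 comparisons that use the CD150-positive Puma-/- libraries, because those carry combined numbers.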
